A study of Homo sapiens and Mus musculus with 20 samples.

Results

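The genes described here build and run the machinery that copies DNA. They are 42 genes, chosen by symbol from the proteins that mark and license replication origins, start the forks, move and protect them, and lay chromatin behind them, out of 17554 genes listed for IMR90 cells in any of 3 expression tables. IMR90 is a line of human fetal lung fibroblasts with no introduced genotype (labelled WT), and bulk RNA-seq was used to measure its transcripts. The treated groups received A485, an inhibitor of the acetyltransferase p300 (compared with Control2), MS-275, which blocks the class I enzymes that remove acetyl groups from histones (compared with Control3), or pyruvate (compared with Control6). Each of the 6 groups held 2 libraries, numbered replicate 1 and 2. The controls carry the treatment label None, and neither dose nor duration is given in the labels. The study's text gives pyruvate to senescent IMR90 cells, which the labels do not say. All libraries come from 1 cell line, nothing in the labels says that replicates were separate cultures, and p-values therefore measure only the spread between these libraries, which may be technical.

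Replication begins when the origin recognition complex binds DNA and, with CDC6 and CDT1, loads the MCM2-7 helicase during G1. Geminin (GMNN) holds CDT1 back once S phase has begun. The DBF4-CDC7 kinase and MCM10 then switch the loaded helicase on together with CDC45 and the GINS complex. Polymerase alpha-primase lays primers, and polymerases delta and epsilon copy the strands with the PCNA clamp. Many of these genes are transcribed in late G1 under E2F factors, so their transcripts are abundant in dividing fibroblasts and scarce in fibroblasts that have left the cell cycle.

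E2F-like letters in the promoters are a feature that the choice of genes did not use. RefSeq promoters (GRCh38.p14) matched 36 of the 42 genes, and the 250 bases before each annotated start were searched on both strands (no promoter was matched for MCM4, MCM5, GINS4, POLD3, RPA2 and RPA3). The letters TTTCCCGC, TTTGGCGC, TTTCGCGC or TTTGCCGC stood in 14 of these 36 genes (38.9%), against 3.40% of all 27305 genes in the same table. CCAAT, the site of the factor NF-Y, stood in 20 of 36 (55.6%), against 37.0% of all genes. TTTGAA, the core of the CHR element found in many mitotic genes, stood in 0 of 36, against 16.1%. A match is a description of the letters and not a bound site. The windows below were chosen only among members with E2F-like letters, which are in capitals, and each window ends at or before the annotated start. Of the members with the largest changes below, GINS2, GMNN and RFC3 are shown. MCM10, CLSPN, ORC1, CDC45, CDC6 and DBF4, also among these, had no such match. MCM6 (minus strand, chr2:135876512-135876620) holds the same pair of overlapping matches in both places where it has them, since TTTGGCGC and the reverse complement of TTTCGCGC share 4 bases. CDT1 (plus strand, chr16:88803729-88803788), GINS2 (minus strand, chr16:85688955-85689010), GMNN (plus strand, chr6:24775308-24775407), PCNA (minus strand, chr20:5126623-5126706) and RFC3 (plus strand, chr13:33818069-33818148) hold 1 match each.
MCM6: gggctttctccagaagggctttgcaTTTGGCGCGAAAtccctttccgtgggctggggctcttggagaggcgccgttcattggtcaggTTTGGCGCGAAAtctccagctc
CDT1: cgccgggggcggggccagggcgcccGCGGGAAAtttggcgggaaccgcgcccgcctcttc
GINS2: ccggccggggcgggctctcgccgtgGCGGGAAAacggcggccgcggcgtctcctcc
GMNN: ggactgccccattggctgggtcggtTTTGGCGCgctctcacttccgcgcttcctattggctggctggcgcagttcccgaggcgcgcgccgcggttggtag
PCNA: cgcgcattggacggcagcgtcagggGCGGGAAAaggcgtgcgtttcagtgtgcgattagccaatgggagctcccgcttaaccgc
RFC3: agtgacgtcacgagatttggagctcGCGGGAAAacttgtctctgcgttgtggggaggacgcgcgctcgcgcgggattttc

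Values are normalised read counts, that is, reads per gene divided by 1 DESeq2 size factor per library, as the authors deposited them. Reads assigned to listed genes numbered from 24179065 to 46971227 in the 12 libraries, with 2.77% to 6.90% on mitochondrial genes. Replicates of every group differed by more than sampling noise. Fibroblast markers (collagens, VIM and others, 10 genes) summed to between 555155 and 2224643 normalised read counts per library, and 5 epithelial markers to at most 262, 5 endothelial markers to at most 1469 and 6 immune markers to at most 46.3. Of the markers of other cell types, CDH1, KRT5, KRT14, PECAM1, CDH5, PTPRC, CD3E, CD68 and MS4A1 were not listed in any table. Others were listed and moved. EPCAM measured 64.2 and 47.7 in Control2 and 208 and 177 after A485. TEK measured 317 and 254 in Control6 and 1435 and 1402 with pyruvate, and was lower after A485 (474 and 1175 in Control2, 189 and 118 after A485). VWF reached 164 in Control6. Counting was not stated to use strand. MCM7 with AP4M1, GINS4 with GPAT4-AS1, GINS2 with GSE1, RFC4 with EIF4A2 and DBF4 with SLC25A40 overlap on opposite strands, FEN1 with FADS2, PRIM1 with NACA and CHAF1B with MORC3 on the same strand, and PRIM2, PCNA, DBF4, RPA2 and RPA3, among others, have named copies elsewhere, so their values are uncertain to that extent. The heat map of all members by library shows the pattern of the 3 experiments.

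**Figure D1:**
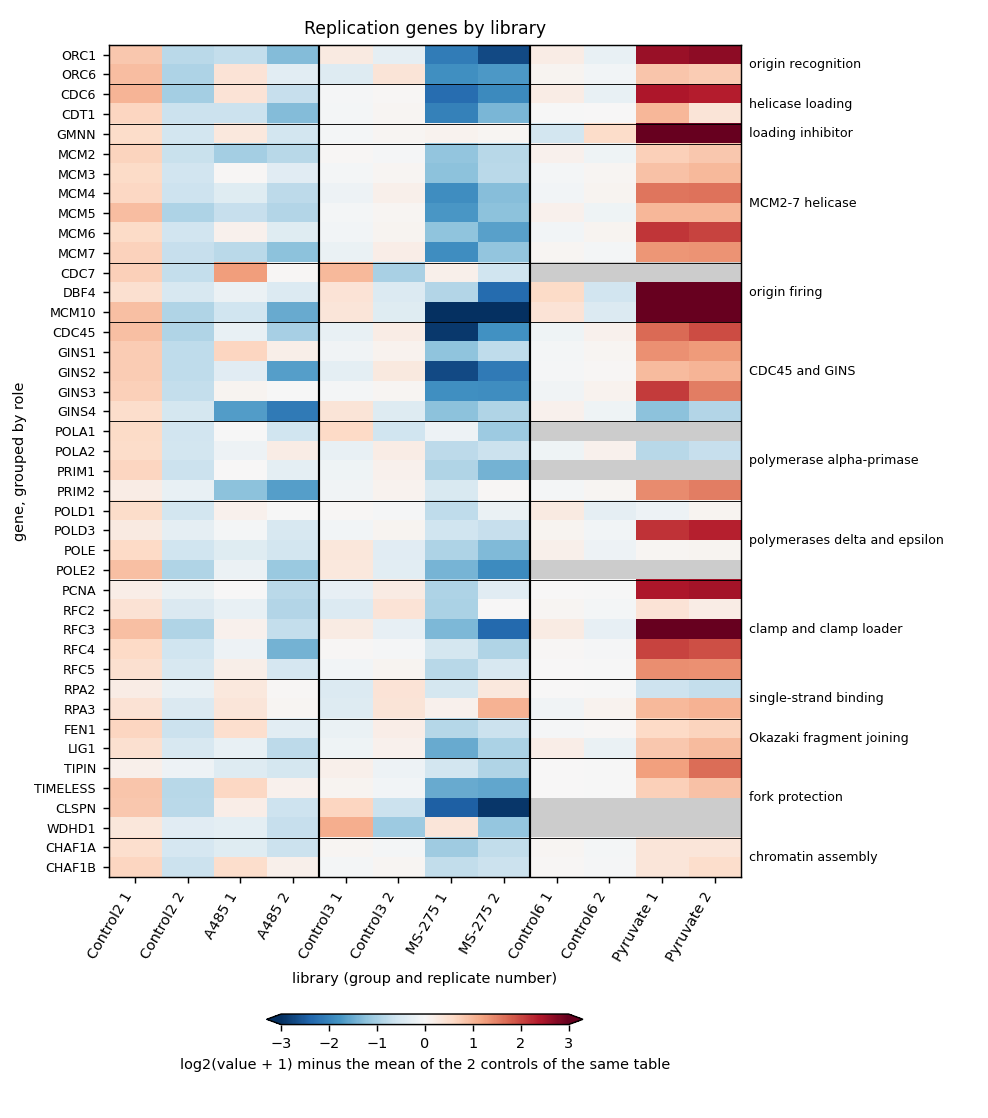
Heat map of the 42 replication genes (rows, grouped by role) in the 12 libraries (columns, group and replicate number). Colour is log2(value + 1) minus the mean of the 2 controls of the same table, grey marks the 6 genes not listed for pyruvate, and colours end at 3 in either direction. Most MS-275 cells are blue, most pyruvate cells red, and Control2 replicate 1 is redder than Control2 replicate 2 in every row.

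The A485 comparison asked whether the replication genes change when p300 is inhibited. PRIM2, the large subunit of primase, and GINS4, 1 of the 4 GINS subunits, fell. No member rose, and the other 40 of the 42 did not pass limma's test. The Control2 libraries differed from each other: all 42 members were higher in Control2 replicate 1 than in replicate 2, by a median of 2.35-fold, while the median of all genes differed by -0.03 on the log2 scale.

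A member was called when limma gave an adjusted p (Benjamini-Hochberg, over all 16084 genes tested) under 0.05 and the log2 fold change was beyond 1 in either direction. By this rule 2 of 42 members (4.76%) were lower, beside 7.06% of all genes, and 0 were higher, beside 3.31% of all genes. Limma gave 2 members an unadjusted p under 0.05, edgeR 3 and DESeq2 8, beside 30.8% of all genes by limma. edgeR called the same 2 members lower (4.76%), beside 6.98% of all genes. DESeq2 called MCM7 besides them (7.14% of members), beside 9.59% of all genes. Neither called a member higher, beside 3.37% of all genes by edgeR and 4.86% by DESeq2. The median log2 fold change of the members was -0.30, beside 0.01 for all genes, and 31 of 42 were below 0, beside 49.5% of all genes. With libraries scaled to equal totals the member median was 0.09 and that of all genes 0.40. PRIM2 (chromosome 6, 57314805 to 57646850) measured 1592 and 1186 in the Control2 libraries and 583 and 434 in the A485 libraries. Both A485 values lay well below both controls (log2 fold change -1.45, SE 0.26, adjusted p 0.0216 by limma). GINS4 measured 998 and 479 in Control2 and 214 and 159 after A485, again without overlap (log2 fold change -1.90, SE 0.41, adjusted p 0.0359 by limma). These are also the 2 members (4.76%) with a log2 difference beyond -1 in each replicate number, beside 9.84% of all genes. Of the other members MCM2, MCM7 and TIPIN had both A485 libraries below both controls, beside 30.7% of all genes.

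Among the licensing genes, ORC1, the largest subunit of the origin recognition complex, measured 489 and 157 in Control2 and 169 and 112 after A485. CDC6, which brings the helicase to the origin, measured 1888 and 457 in Control2 and 1232 and 578 after A485. In both genes the A485 libraries fell between the controls or overlapped them, and neither log2 fold change (-1.004, SE 0.58, for ORC1, and -0.14, SE 0.69, for CDC6) passed the test. GMNN, the licensing inhibitor, measured 1052 and 497 in Control2 and 896 and 496 after A485. MCM2, a subunit of the helicase, measured 1504 and 599 in Control2 and 470.3 and 536 after A485, which lay below both controls by little (log2 fold change -0.92, SE 0.44, adjusted p 0.215 by limma). All 6 helicase genes were below 0, with a median of -0.68 and a range from -1.02 in MCM7 to -0.11 in MCM6, and none was called.

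The firing and fork genes were as uneven between the controls. DBF4, the regulatory subunit of the CDC7 kinase, measured 798 and 416 in Control2 and 513 and 434 after A485. CDC45, the helicase activator, measured 729.9 and 207 in Control2 and 331 and 195 after A485. The A485 values of DBF4 lay inside the range of its controls, and those of CDC45 reached just below it. POLA1, the catalytic subunit of polymerase alpha, measured 879.7 and 394 in Control2 and 584 and 389 after A485. POLE2, a subunit of polymerase epsilon, measured 278 and 79.6 in Control2 and 131 and 68.6 after A485. Neither gene separated the groups. PCNA, the sliding clamp, measured 4644 and 3578 in Control2 and 4116 and 2318 after A485. RPA2, of the single-strand binding complex, measured 1713 and 1246 in Control2 and 1831 and 1493 after A485. RPA2 and RPA3 were both slightly above 0 (0.18 and 0.21 on the log2 scale) and not called. FEN1, the flap nuclease of Okazaki fragments, measured 1910.2 and 789 in Control2 and 1755 and 984 after A485. TIMELESS, which steadies paused forks, measured 1908 and 599 in Control2 and 1653 and 1176 after A485. CHAF1B, of the histone chaperone CAF-1, measured 845 and 346 in Control2 and 781 and 599 after A485. In each of these 3 genes the A485 libraries lay within the range of the controls.

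Of the 10 fibroblast markers 8 fell after A485, with a median log2 fold change of -1.92, and sums of 1851519.8 and 2224643 in Control2 against 555155 and 667929.7 after A485. The 8 cycling cell markers (MKI67, TOP2A, CDK1 and others) moved with Control2 replicate 1 as well: they summed to 41867 in that library, to 11935 in Control2 replicate 2, and to 10835 and 9271 after A485, with a median log2 fold change of -1.19 and 0 called. In bulk RNA a smaller number of cycling cells and less RNA per cell cannot be told apart, and the part of either, or of the fall in fibroblast markers, in the replication genes was not tested. Without Control2 replicate 1 the member median turned to 0.26, and without Control2 replicate 2 it was -0.87. With any 1 of the 4 libraries left out, PRIM2 and GINS4 were not called. PRIM2 stayed between -1.66 and -1.24 and GINS4 between -2.43 and -1.37 in these 4 fits. The plot of 8 genes by library shows the separation of PRIM2 and GINS4 beside the overlap of CDC6 and GMNN.

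**Figure D2:**
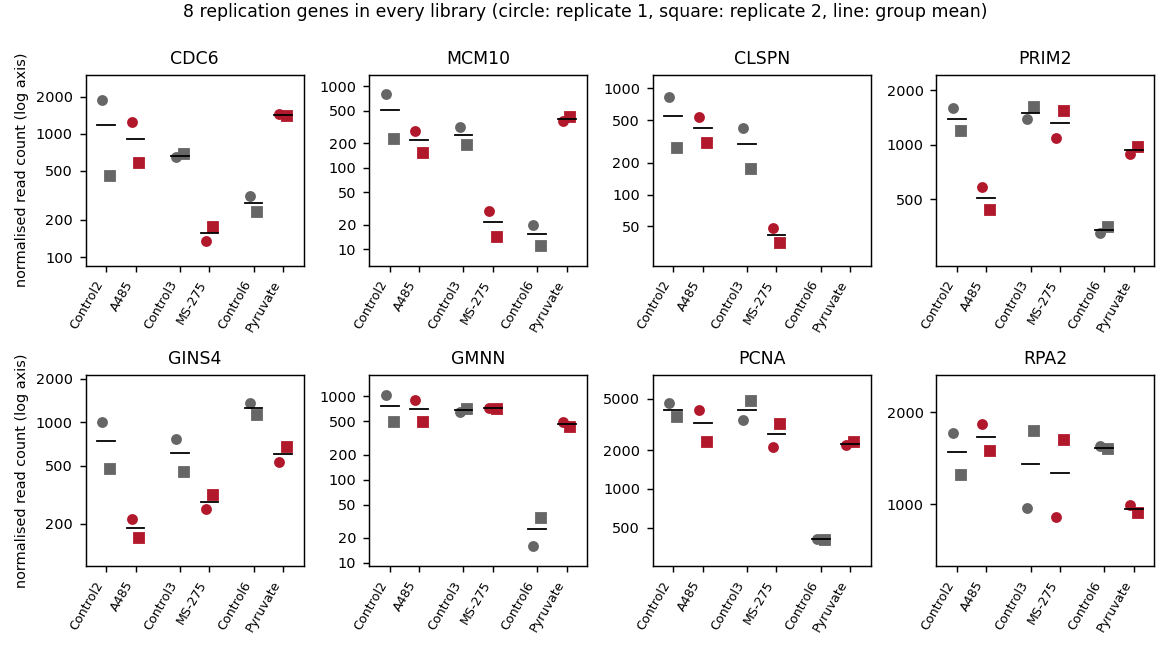
Normalised read count (log axis) of 8 replication genes in each library, with controls in grey, treated libraries in red, circles for replicate 1, squares for replicate 2 and a line at each group mean. PRIM2 and GINS4 lie below both controls after A485, CDC6, MCM10 and CLSPN lie below both after MS-275, GMNN stays level under MS-275 and rises from 15.7 and 34.7 to 498 and 433 with pyruvate, and CLSPN was not listed for pyruvate. Levels of the 3 experiments were normalised separately.

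The MS-275 comparison asked the same of inhibiting class I histone deacetylases. Here the replication genes were lower almost throughout: both MS-275 libraries lay below both Control3 libraries in 34 of 42 members, and 18 had a log2 difference beyond -1 in each replicate number. MCM10, CLSPN, GINS2, ORC1 and CDC45 had the largest differences, with log2 fold changes from -3.53 to -2.35. GMNN, RPA2, RPA3, PRIM2 and CDC7, named after their values were seen, stayed near or above the controls. With replicate numbers left unpaired, no member passed the adjusted test by limma or edgeR, and 10 did by DESeq2.

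Of all 15883 genes tested, 19.3% had both MS-275 libraries below both controls and 4.85% were lower by more than 1 within both numbers, against the 34 (with 1 higher, GMNN) and 18 of 42 members. By limma 0 members were called lower, beside 0% of all genes, and 0 higher, beside 0% of all genes, and 22 members and 1730 of all genes had an unadjusted p under 0.05. By edgeR 0 members were called, with an unadjusted p under 0.05 in 23. DESeq2 called 10 members lower, beside 1.43% of all genes (ORC1, ORC6, CDC6, MCM4, MCM10, CDC45, GINS2, GINS3, TIMELESS and CLSPN), and 0 higher. The median log2 fold change of the members was -1.05, beside -0.01 for all genes. It was -1.15 within replicate number 1 and -0.87 within number 2, and 39 of 42 members were below 0 within both, beside 40.4% of all genes. No test was made of the within-number differences that follow.

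Licensing genes were low in both MS-275 libraries. ORC1 measured 162 and 113 in Control3 and 31.0 and 19.9 after MS-275, which is -2.35 and -2.45 on the log2 scale within replicate numbers 1 and 2. ORC6, the smallest origin recognition subunit, measured 396 and 675 in Control3 and 144 and 155 after MS-275 (-1.45 and -2.11). CDC6 (chromosome 17, 40287879 to 40304657) measured 648 and 680.1 in Control3 and 136 and 176 after MS-275 (-2.25 and -1.94), and its log2 fold change was -2.09 (SE 0.35, adjusted p 0.193 by limma). CDT1, the partner of CDC6, followed them at 342 and 365 in Control3 and 85.2 and 137 after MS-275 (-1.99 and -1.41). Its inhibitor did not: GMNN measured 651 and 706 in Control3 and 725 and 708 after MS-275 (log2 fold change 0.08, SE 0.31, and -0.06 with libraries scaled to equal totals). CDT1 and GMNN both carry E2F-like letters, as printed above.

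All 6 helicase genes were lower in both MS-275 libraries, with log2 fold changes from -1.57 to -1.01. MCM2 measured 800.3 and 764 in Control3 and 343 and 438 after MS-275. MCM4 measured 2245 and 2756 in Control3 and 688 and 1020.5 after MS-275 (-1.70 and -1.43 within the numbers). MCM5 measured 1096 and 1186 in Control3 and 338 and 488 after MS-275 (-1.69 and -1.28). The groups did not overlap in any of the 3. MCM6 measured 1798 and 1992 in Control3 and 816 and 614 after MS-275 (-1.14 and -1.70). MCM7 measured 2544 and 3311 in Control3 and 791 and 1279 after MS-275 (-1.68 and -1.37). MCM3 differed by -1.16 and -0.88.

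Among the proteins that turn the helicase on, MCM10, CDC45 and GINS2 were far lower and CDC7, GINS1 and GINS4 less so. MCM10 (chromosome 10, 13161558 to 13211110), which activates the assembled helicase, measured 315 and 190.0 in Control3 and 29.0 and 14.0 after MS-275 (-3.39 and -3.68), with a log2 fold change of -3.53 (SE 0.56, adjusted p 0.184 by limma). CDC45 (chromosome 22, 19479457 to 19520612) measured 238 and 326 in Control3 and 36.8 and 78.7 after MS-275 (-2.66 and -2.04). GINS2 measured 394 and 595 in Control3 and 73.6 and 111 after MS-275 (-2.41 and -2.42). None of the 3 overlapped its controls. GINS3 measured 154 and 166 in Control3 and 43.6 and 42.9 after MS-275 (-1.79 and -1.93). GINS1 (-0.98) and GINS4 (-1.07) were lower by less. DBF4 measured 539.8 and 305 in Control3 and 221 and 81.7 after MS-275 (-1.29 and -1.89), while its kinase partner CDC7 measured 241 and 62.7 in Control3 and 138 and 80.7 after MS-275 and overlapped its controls.

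Polymerase subunits were lower by less and less evenly. POLE2 measured 188 and 119 in Control3 and 56.2 and 39.9 after MS-275 (-1.73 and -1.56). POLA1 measured 636 and 279.9 in Control3 and 379 and 196 after MS-275, with overlap. PRIM2, which A485 lowered, measured 1385 and 1612 in Control3 and 1096 and 1533 after MS-275 and overlapped. The 4 polymerase delta and epsilon genes had a median of -0.88, from -1.64 in POLE2 to -0.48 in POLD1. PCNA measured 3397 and 4813 in Control3 and 2128 and 3179.9 after MS-275 (log2 fold change -0.64, SE 0.38), and both treated libraries lay below both controls. RFC3, a subunit of the clamp loader, measured 513 and 367 in Control3 and 169 and 85.7 after MS-275 (-1.59 and -2.08). The other loader subunits, RFC2, RFC4 and RFC5, lay between -0.71 and -0.46.

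The single-strand binding genes RPA2 and RPA3, like GMNN, PRIM2 and CDC7, stayed near or above the controls. RPA2 measured 973 and 1737 in Control3 and 908 and 1627 after MS-275 (log2 fold change -0.10, SE 0.48, and 0.32 without Control3 replicate 2 or without MS-275 replicate 1). RPA3 measured 336 and 583 in Control3 and 480.3 and 907 after MS-275, a difference of 0.52 and 0.64 within the numbers. In both genes replicate 2 was the higher in either group, so that the groups overlapped. FEN1 measured 890.5 and 1160.2 in Control3 and 565 and 649 after MS-275, below both controls. LIG1, the ligase that seals Okazaki fragments, measured 572 and 676 in Control3 and 216 and 324 after MS-275 (-1.40 and -1.06).

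Of the fork protection genes, CLSPN and TIMELESS were much lower. CLSPN (chromosome 1, 35720218 to 35769978), claspin, which carries the checkpoint signal at stalled forks, measured 422 and 173 in Control3 and 48.4 and 34.9 after MS-275 (-3.10 and -2.28). TIMELESS measured 922 and 829.7 in Control3 and 306 and 296 after MS-275 (-1.59 and -1.48). Its partner TIPIN differed by -0.70 and -0.75. CHAF1B measured 370.4 and 403 in Control3 and 229 and 246 after MS-275 (-0.69 and -0.71), and CHAF1A differed by -1.14 and -0.68. WDHD1, which links the helicase to polymerase alpha, measured 735 and 162 in Control3 and 445 and 154 after MS-275, a replicate difference larger than the difference between groups.

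**Figure D3:**
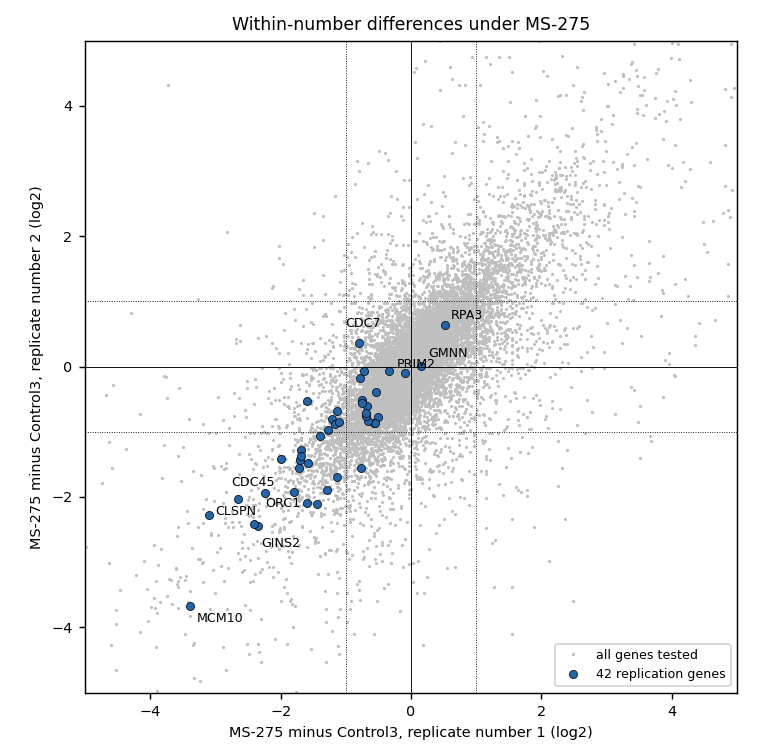
Log2 difference between MS-275 and Control3 within replicate number 1 (horizontal) and number 2 (vertical) for the 42 replication genes (blue) and all 15883 genes tested (grey, 97 of them outside the axes). Dotted lines mark 1 and -1. Members gather in the lower left, with 18 beyond -1 on both axes, MCM10 farthest, and GMNN and RPA3 at or above 0 (GMNN at -0.06 with libraries scaled to equal totals).

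Cycling cell markers were lower in all 8 genes after MS-275, with a median log2 fold change of -2.82 and sums of 18509 and 7506 in Control3 against 2505 and 1566 in MS-275 libraries, 0 called, and their part in the replication genes was not tested. With each library left out in turn, the member median lay between -1.20 and -1.02 in these 4 fits.

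Whether MS-275 and A485 differed in effect was tested directly, as the difference of both effects over 8 libraries. Of 42 members 0 were called, beside 0.608% of all 15130 genes lower and 3.20% higher under MS-275 than under A485. The MS-275 effect was the lower in 35 of 42 members (median difference -0.74, beside -0.02 for all genes). This median was -0.14 without Control2 replicate 2 and -1.41 without Control2 replicate 1. By limma 5 of 42 members had an unadjusted p under 0.05, a smaller share than the 2659 of 15130 genes. edgeR called 0 members, beside 0.615% of genes lower and 3.11% higher, and DESeq2 0, beside 2.52% and 6.85%. The estimates of 4 of the 5 were lower under MS-275: MCM10 (difference -2.49, SE 0.97), CLSPN (-2.47, SE 0.92), TIMELESS (-1.92, SE 0.72) and GINS3 (-1.89, SE 0.69). That of PRIM2 (1.24, SE 0.44) was lower under A485. None passed the test, with adjusted p from 0.2 for PRIM2 to 0.242 for MCM10 by limma.

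**Figure D4:**
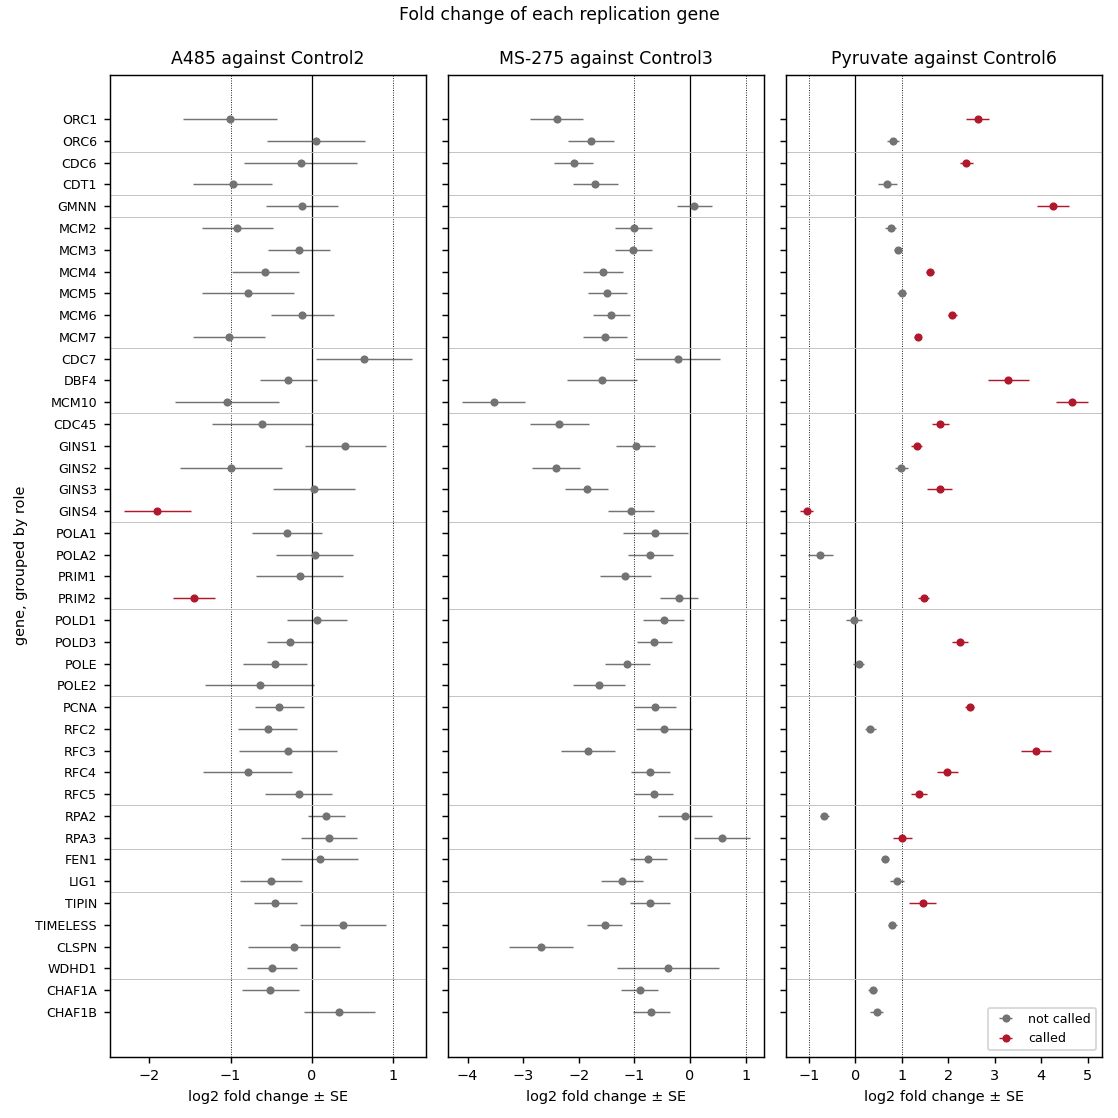
Log2 fold change with its standard error (bars) of each member in the 3 comparisons, with called members in red and dotted lines at 1 and -1. After A485 PRIM2 and GINS4 are red on the left, after MS-275 none is red although 40 of 42 points are left of 0, and with pyruvate 19 are red on the right and GINS4 on the left.

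The pyruvate comparison asked whether the replication genes change when IMR90 cells receive pyruvate. Most rose. MCM10, GMNN, RFC3, DBF4 and ORC1 rose the most in the values as deposited, by log2 fold changes of 4.66 to 2.63, and PCNA and CDC6 by 2.46 and 2.39. GINS4 fell, and POLA2 and RPA2 were also lower, by less than the threshold. The table held 36 of the 42 members: POLA1, PRIM1, POLE2, CDC7, CLSPN and WDHD1 were not listed in it, and no value is given for them. The lowest mean of a listed gene was 16.1, beside 4.33 and 4.91 in the other tables, and how genes were selected for listing is not stated. A gene that was listed only because it is high in 1 group would have to differ, so the counts below describe the listed members. The Control6 mean of MCM10 (15.2) lay below that lowest mean, and those of DBF4 (18.2) and RFC3 (18.4) just above it.

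By limma 19 of 36 members (52.8%) were called higher, beside 31.0% of all 12013 genes, and 1 (2.78%) lower, beside 23.1% of all genes. Both pyruvate libraries lay above both controls in 31 of 36 members, beside 45.2% of genes, and 18 were higher by more than 1 within both replicate numbers, beside 28.1%. The member median was 1.16, beside -0.01 for all genes. The members' median difference between replicates 1 and 2 was 0.06 in Control6 and -0.06 in pyruvate libraries on the log2 scale. Single members differed by -1.10 to 1.16 in Control6 and by -0.43 to 0.61 in pyruvate libraries.

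Licensing genes and the licensing inhibitor rose together. ORC1 (chromosome 1, 52372829 to 52404423) measured 62.9 and 45.6 in Control6 and 327 and 348 with pyruvate (log2 fold change 2.63, SE 0.25, adjusted p 1.35e-06 by limma). CDC6 measured 313 and 233 in Control6 and 1457 and 1387 with pyruvate (log2 fold change 2.39, SE 0.15). GMNN (chromosome 6, 24774931 to 24786099) measured 15.7 and 34.7 in Control6 and 498 and 433 with pyruvate (log2 fold change 4.25, SE 0.35, adjusted p 4.52e-07 by limma). All pyruvate values lay far above all controls, and GMNN, level under MS-275, had the second largest rise of the 36. ORC6 (0.80) and CDT1 (0.68) were higher by less than the threshold.

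In the values as deposited the 6 helicase genes were all higher, from 0.76 in MCM2 to 2.09 in MCM6, and 3 were called. MCM2 measured 592 and 502 in Control6 and 892 and 954 with pyruvate. MCM4 measured 973 and 1096 in Control6 and 3120.2 and 3174 with pyruvate (log2 fold change 1.61, SE 0.09). MCM6 (chromosome 2, 135839626 to 135876443) measured 530.4 and 603 in Control6 and 2501 and 2323 with pyruvate (log2 fold change 2.09, SE 0.10, adjusted p 5.56e-09 by limma). No helicase gene overlapped its controls. MCM7 measured 1525 and 1420.3 in Control6 and 3707 and 3767 with pyruvate (log2 fold change 1.343, SE 0.08). The order changed with the length and GC trend described below removed. MCM6 was then the lowest of the 6 (0.84) and not called, MCM7 was the highest (2.28), and MCM2 was called (1.56).

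Firing genes showed the widest range. MCM10 measured 19.6 and 10.8 in Control6 and 378 and 414 with pyruvate (log2 fold change 4.66, SE 0.34, adjusted p 1.76e-07 by limma). DBF4 measured 25.5 and 10.8 in Control6 and 151 and 198 with pyruvate (log2 fold change 3.29, SE 0.44). Both genes had few reads in the controls, and their standard errors were among the largest of the members. MCM10 may be listed only through its pyruvate values, and its adjusted p and its place as the largest rise then give no support. CDC45 measured 127 and 151 in Control6 and 454 and 538 with pyruvate. GINS1 measured 306 and 329 in Control6 and 821 and 765 with pyruvate. GINS3 measured 58.9 and 67.3 in Control6 and 271 and 186 with pyruvate. These 3 were called higher, at 1.83, 1.32 and 1.82 on the log2 scale. GINS4 went the other way at 1365 and 1132 in Control6 and 533 and 679.8 with pyruvate (log2 fold change -1.05, SE 0.14, adjusted p 2.46e-05 by limma); it was not called without Control6 replicate 1 (-0.91), without pyruvate replicate 1 (-0.87) or with libraries scaled to equal totals (-0.73).

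The polymerases divided. PRIM2 measured 324 and 348 in Control6 and 894 and 969 with pyruvate (log2 fold change 1.47, SE 0.12). POLD3, a subunit of polymerase delta, measured 129.7 and 115 in Control6 and 551 and 619 with pyruvate (log2 fold change 2.25, SE 0.17). The catalytic subunits POLD1 (-0.03) and POLE (0.07) overlapped their controls. POLA2, the second subunit of polymerase alpha, was at -0.76 (SE 0.27), below both controls and not called. This split did not hold with the length and GC trend described below removed. POLD1 (1.06) was then called higher, and POLE (0.53), POLD3 (0.87), PRIM2 (0.17) and POLA2 (-0.17) were not called.

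Clamp and clamp loader genes were all higher, and 4 of 5 were called. PCNA (chromosome 20, 5114953 to 5126626) measured 413 and 401 in Control6 and 2197 and 2294 with pyruvate (log2 fold change 2.46, SE 0.10, adjusted p 1.44e-09 by limma). RFC3 (chromosome 13, 33818069 to 33966558) measured 21.6 and 15.2 in Control6 and 280.2 and 285 with pyruvate (log2 fold change 3.89, SE 0.32). RFC4 measured 76.6 and 72.7 in Control6 and 308 and 288 with pyruvate. RFC3 and RFC4 had the lowest control values of the loader. RFC5 measured 160.1 and 157 in Control6 and 416 and 409 with pyruvate. RFC2 was higher by 0.32, which was not called.

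Single-strand binding genes moved apart. RPA2 measured 1546 and 1518 in Control6 and 992 and 938 with pyruvate, lower without overlap (log2 fold change -0.67, SE 0.09) but short of the threshold. RPA3 measured 115 and 135 in Control6 and 247 and 257 with pyruvate and was called, at 1.01 just above the threshold; it was not called without Control6 replicate 1 (0.90) or without pyruvate replicate 2 (0.98). FEN1 measured 983 and 1032 in Control6 and 1523 and 1609.9 with pyruvate, higher by 0.64. TIPIN measured 55.0 and 54.3 in Control6 and 129.8 and 176 with pyruvate (log2 fold change 1.45, SE 0.29) and was called. TIMELESS measured 711 and 701 in Control6 and 1163 and 1289 with pyruvate, higher by 0.79. CHAF1B measured 418 and 393 in Control6 and 526 and 588 with pyruvate, higher by 0.46. These last genes separated the groups without reaching the threshold, except TIPIN.

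Fold changes in this comparison also followed base composition. Across 11888 genes with an annotated canonical transcript, Spearman's rho between transcript GC content and log2 fold change was -0.72, and across the 36 members it was -0.68, beside -0.11 and -0.02 over all genes for A485 and MS-275. Genes share libraries and are not independent replicates. GC-poor members such as RFC3 (38.0% GC) and DBF4 (37.7%) had log2 fold changes of 3.89 and 3.29, and GC-rich ones such as POLD1 (64.8%) and CDT1 (64.3%) of -0.03 and 0.68. With the dependence on length and base composition of the transcript taken out of each library, 23 of 36 members (63.9%) were called higher, beside 15.6% of all genes, and 1 (GINS4) lower, beside 13.3%. Of these, 12 were called higher both ways: ORC1, CDC6, GMNN, MCM4, MCM7, DBF4, MCM10, CDC45, GINS3, PCNA, RFC3 and RFC4. Another 11 (CDT1, MCM2, MCM3, MCM5, GINS2, POLD1, RFC2, FEN1, LIG1, TIMELESS and CHAF1A) passed only with the trend removed, and 7 (MCM6, GINS1, PRIM2, POLD3, RFC5, RPA3 and TIPIN) passed only as deposited. DBF4 went from 3.29 to 1.56, below CDC45 (2.47) and MCM7 (2.28), and RFC3 from 3.89 to 2.41. PRIM2 went from 1.47 to 0.17, TIPIN from 1.45 to 0.07 and GINS1 from 1.32 to -0.11, while CDT1 went from 0.68 to 1.92 and POLD1 from -0.03 to 1.06. Whether the trend is technical was not tested.

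**Figure D5:**
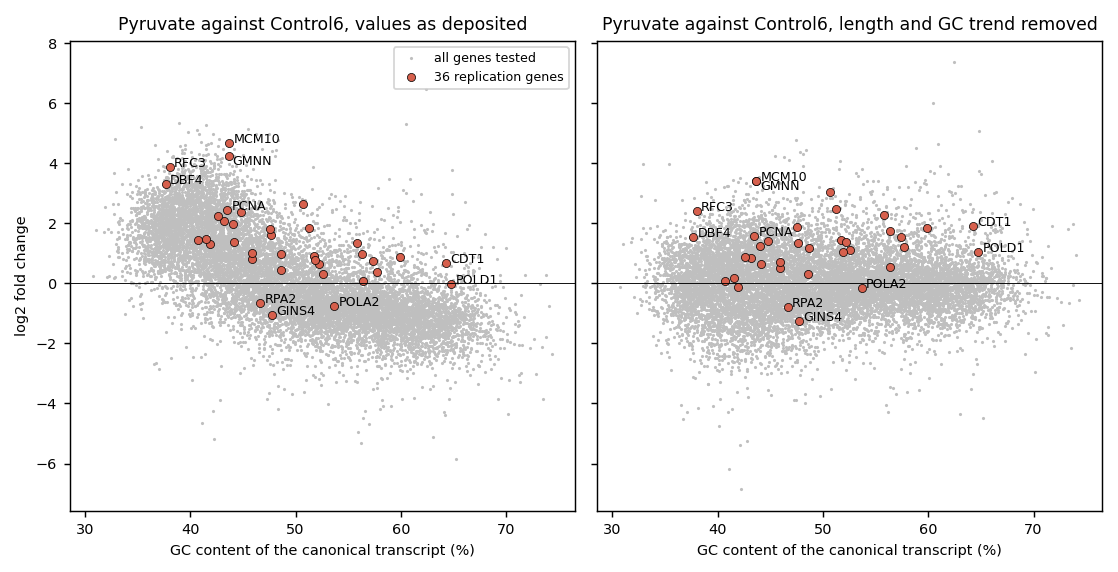
Log2 fold change of pyruvate against Control6 (vertical) over the GC content of the canonical transcript in percent (horizontal), with values as deposited on the left and with the length and GC trend removed on the right, for all genes tested (grey) and the 36 listed members (red). On the left the members slope down with the cloud, and on the right most lie above 0 at any GC content, with GINS4 and RPA2 lowest.

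Cycling cell markers rose in all 8 genes with pyruvate (median log2 fold change 4.73, 8 called, beside 31.0% of all genes called higher). Their sums went from 1779.7 and 1808 in Control6 to 11861 and 11846. With the length and GC trend removed, their log2 fold changes ran from 4.44 in MKI67 to 0.77 in AURKA, and CCNB1 went from 2.11 to 0.90. The part of these markers in the replication genes was not tested.

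Levels within a complex were compared per kilobase of the canonical transcript, within each library. MCM7 was the highest of the 6 helicase genes in 11 of 12 libraries and MCM2 the lowest in 10 of 12. MCM7 held 33.2% and 32.2% of the summed helicase level in Control2 and 24.8% and 23.6% after A485. In GINS, which assembles from 1 copy of each subunit, GINS4 held 24.1% and 30.3% in Control2 and 9.02% and 9.81% after A485, and 62.4% and 56.3% in Control6 against 19.9% and 25.7% with pyruvate. It held 35.6% and 20.4% in Control3 and 36.6% and 34.9% after MS-275, and these groups overlapped. RPA3 held 21.3% and 20.8% of the summed RPA2 and RPA3 level in Control3 and 29.3% and 30.4% after MS-275. The same share was 5.51% and 6.50% in Control6 and 16.3% and 17.7% with pyruvate, and 20.8% and 16.6% in Control2 and 19.1% and 18.9% after A485. These shares were computed after the values were seen and carry no test.

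Other replication genes, from a list of 34, followed the members in part. After A485, 33 were tested and POLD2, the second subunit of polymerase delta, was the 1 called, at 3419 and 3002 in Control2 and 1318 and 1405 after A485 (log2 fold change -1.23, SE 0.17, adjusted p 0.0108 by limma); the list's median was -0.01. After MS-275, 32 were tested, 0 were called in either direction by limma, 8 had an unadjusted p under 0.05, 27 were below 0 and the median was -0.52. With pyruvate, 16 of 28 were called higher, beside 31.0% of all genes, and 4 lower, beside 23.1%, with a median of 1.68. DTL, which targets CDT1 for destruction, measured 45.2 and 42.3 in Control6 and 876 and 857 with pyruvate, SUPT16H, of the histone chaperone FACT, 294 and 255 and 5082 and 5213, and ORC5 33.4 and 45.6 and 369 and 378. Their log2 fold changes were 4.28, 4.23 and 3.22, and 2.56, 3.12 and 1.90 with the length and GC trend removed. POLD4 (-1.56), RNASEH2C (-1.54) and RTEL1 (-1.43) fell the most, and lay at -0.49, -0.55 and -0.61 with the trend removed.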

How the data were processed

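Per the study's methods and the submitters' processing notes, the authors trimmed reads with Trim Galore 0.6.10, aligned them to hg38 with HISAT2 2.2.1, used SAMtools 1.7, counted with featureCounts 2.0.6 and normalised with DESeq2 1.34.0. The gene annotation and strand setting are not given in the sources used here. The deposited signal is a read count divided by 1 size factor per library, in a separate table per experiment. All values were whole multiples of 1 read within 0.01 read, so reads were recovered. Genes whose mean value reached 10 in the libraries fitted were tested on log2(value + 1) with limma 3.58.1 (moderated, with a mean trend, no covariate, two-sided, R 4.3.3), so fold changes of low genes are understated. Calls needed a Benjamini-Hochberg adjusted p under 0.05 over all genes and an absolute log2 fold change above 1. edgeR 4.0.16 and DESeq2 1.42.0 on the recovered reads, other pseudocounts, filters, scalings, a replicate block, a length and GC trend (natural spline) and leaving out each library were alternatives. All 3 tools were tested on simulated data. Values were named for 13 representative members, called members and members beyond 1 within both replicate numbers, and others as ranges. The members and gene lists were chosen with earlier results of these data known. Gene positions are hg38 (GENCODE). 8 mouse muscle libraries of the series were not used.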

Additional observations from a re-analysis of the deposited data

How the results depend on the processing

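With libraries scaled to equal totals, the median of all genes shifted to 0.40 after A485, -0.15 after MS-275 and 0.30 with pyruvate. The member median then was 0.0931 after A485 (-0.31 relative to all genes), -1.19 after MS-275 and 1.47 with pyruvate, CDC6 (0.26), GMNN (0.28), DBF4 (0.10) and POLA1 (0.0885) turned positive after A485, GMNN turned to -0.0633 after MS-275, and 26 of 36 members were called higher and 0 lower with pyruvate (36.6% and 14.5% of all genes). The share of all calls that were higher went from 31.9% to 64.6% after A485 and from 57.3% to 71.7% with pyruvate. Quantile normalization gave 42.6% and 49.3%, member medians of -0.9964 after MS-275 and 0.92 with pyruvate, and 16 higher and 2 lower calls with pyruvate (26.2% and 26.9% of all genes). A pseudocount of 10 gave a median of -1.0043 after MS-275. A fold threshold of 0.58 gave 28 higher and 3 lower calls with pyruvate (37.2% and 34.1% of all genes). DESeq2 called 10 members after MS-275. With the length and GC trend removed, GINS1 turned to -0.11 with pyruvate. The cause of these changes was not tested.

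Replicate numbers are not stated to pair libraries, and same-numbered deviations correlated at 0.316, 0.728 and 0.002 for A485, MS-275 and pyruvate, over 2 pairs each. A replicate block gave 4 lower calls after A485 (9.52% of members, beside 1616 of 16084 genes), with MCM7 and MCM10 added, and 23 lower after MS-275 (beside 953 of 15883 genes). It gave 19 higher and 1 lower with pyruvate (31.0% and 23.2% of genes), and 13 calls for the difference of MS-275 and A485, 12 of them lower (28.6% of members, 8.04% of genes) and 1 higher, PRIM2 (12.5% of genes).

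Leaving out 1 library at a time gave member medians of -0.87 to 0.26 after A485, -1.20 to -1.02 after MS-275 and 1.12 to 1.21 with pyruvate. The direction after A485 changed over these fits for FEN1 -0.54 to 0.73, CDC6 -1.16 to 0.89, GMNN -0.66 to 0.42, PCNA -0.81 to 0.0138, DBF4 -0.76 to 0.18, CDC45 -1.52 to 0.30, POLA1 -0.88 to 0.27, POLE2 -1.54 to 0.25, RPA2 -0.0516 to 0.41, TIMELESS -0.45 to 1.22 and CHAF1B -0.30 to 0.98, and after MS-275 for RPA2 -0.52 to 0.32. With 2 libraries a group, the lone library left was taken to vary like the other groups. Members had 61.2 to 5622 normalised read counts in Control2, and low counts in Control6 (10.9 in MCM10 and DBF4) limit the precision of the largest pyruvate fold changes.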

Other observations

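Regulators that stand upstream of these genes at the G1/S boundary were described from a list of 16. After A485, CCND1, the D-type cyclin, fell from 52608 and 80268 in Control2 to 14556 and 15030.0 (log2 fold change -2.14, SE 0.25, adjusted p 0.00701 by limma), the 1 gene of the list called. CDK4, its kinase, measured 4148 and 4160.2 in Control2 and 2059 and 2134 after A485, and RB1, the retinoblastoma protein, 3097 and 2717 and 5702 and 5502, both just short of the fold threshold. After MS-275 limma called 0 of 16 and 3 had an unadjusted p under 0.05. E2F1 measured 317 and 503 in Control3 and 119 and 139 after MS-275, and CCNE2, a cyclin of the G1/S transition, 123 and 43.5 and 24.2 and 20.9. Other genes of the list lay above 0 without passing the test: CCNE1, the sister cyclin, measured 227 and 406 in Control3 and 419 and 726 after MS-275 (log2 fold change 0.86), and CDKN1A and CDK2 were at 0.98 and 0.51. With pyruvate 7 of 15 listed genes rose, beside 31.0% of all genes, and 3 fell, beside 23.1%. RBL1, a relative of RB1, measured 37.3 and 30.4 in Control6 and 245 and 212 with pyruvate, and E2F3 333 and 220.3 and 1529.6 and 1481. CDKN1A, the CDK inhibitor p21, fell from 35198 and 36767 in Control6 to 9790.3 and 9869 (log2 fold change -1.87, SE 0.05, adjusted p 1.67e-10 by limma), and CCND1 from 92291 and 86576 to 33698 and 33852. CDKN1B, another CDK inhibitor, went the other way, from 179 and 152 in Control6 to 909 and 1027 with pyruvate (log2 fold change 2.54). CCNE1 fell (-1.14), and E2F1 was lower by less than the threshold (-0.60). With the length and GC trend removed, the log2 fold change of RBL1 went from 2.72 to 0.80 and of E2F3 from 2.47 to 1.83. CDKN1A went to -0.84 and CCND1 from -1.40 to -1.26, and CDKN1B, CCNE1 and E2F1 lay at 2.23, -0.45 and 0.53.

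Members with E2F-like letters in the promoter and those without had similar medians on the log2 scale, given as a description: -1.07 (14 genes) and -1.09 (22 genes) after MS-275, -0.35 and -0.25 after A485, and 1.17 (12 genes) and 1.345 (18 genes) with pyruvate.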
